A study of Mus musculus with 201 samples.

Results

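The genes described here are the zinc finger genes that carry a mouse Zfp symbol, that is, Zfp followed by a number, and that were bright enough to be measured in hippocampus. A gene was kept when its brightest probe set, the one with the highest mean, averaged a score of 8 or more over all arrays. Of 305 Zfp genes on the array 178 met this rule, out of 18193 genes named by at least 1 probe set. Levels are PDNN scores, log-like summaries of probe brightness with an unstated base, and the mean over all probe sets of an array lay between 8.06 and 8.10. The cut-off therefore lies close to the average probe set.

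Zfp genes mostly encode proteins with C2H2 zinc fingers, small folds in which cysteines and histidines hold a zinc ion and which bind DNA or RNA. Many also carry a KRAB domain, which recruits the scaffold protein TRIM28 and, through it, enzymes that silence chromatin, above all at retroelements. KRAB zinc finger genes lie in clusters of related copies, a family known for fast turnover between species and strains. Others in the group have no KRAB domain and serve as general transcription factors, spindle proteins or RNA-binding proteins.

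The series surveyed hippocampal RNA of 100 mouse strains on 201 Affymetrix M430 2.0 arrays, to relate transcript levels to genetic differences. Each array held the pooled hippocampi of 1 to 4 mice of 1 strain, mostly 1 pool of females and 1 pool of males per strain, and the labels warn of variable amounts of subiculum and fimbria. Replicates are such pools, so p-values measure the spread between these samples. In whole tissue, fewer cells of a type and less RNA per cell cannot be told apart.

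The BXD panel, recombinant inbred strains from C57BL/6J and DBA/2J, held 68 strains on 134 arrays, 67 female, 66 male and 1 of mixed sex that was left out, at mean pool ages of 54 to 196 days (median 61). Some of its newer strains were not yet fully inbred, per the labels. The CXB panel, from BALB/cByJ and C57BL/6ByJ, held 13 strains on 27 arrays, 13 female and 14 male, at 41 to 80 days. The 13 classical inbred strains, the parents among them, were on 27 arrays (14 female, 13 male, 51 to 96 days). Beside the parents of both panels, they were 129S1/SvImJ, A/J, AKR/J, BALB/cJ, C3H/HeJ, KK/HIJ, LG/J, NOD/LtJ and NZO/HlLtJ. The 4 wild-derived inbred strains CAST/EiJ, PWD/PhJ, PWK/PhJ and WSB/EiJ were on 7 arrays (3 female, 4 male, 58 to 83 days). The reciprocal hybrids B6D2F1 and D2B6F1 were on 6 arrays (4 female, 2 male, 63 to 72 days), which entered only the fit of all arrays together. The labels name no treatment.

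The genes were selected on mean level alone, over all arrays together, and no strain difference entered the choice. Just inside the limit were Zfp646 at a mean of 8.00, Zfp787 at 8.01 and Zfp606 at 8.02, and just outside were Zfp317 at 7.998, Zfp352 at 7.99 and Zfp28 at 7.98. The median level of the 178 genes was 8.33, against 8.67 in the 9827 other genes with a mean of 8 or more. Most Zfp genes of the set are thus in the dimmest part of that range, with 127 between 8 and 8.5. They were read by 377 probe sets, 71 genes by 1 and 107 by several. A gene counts as called when its brightest probe set had an adjusted p under 0.05.

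Before the strain results, the labels need a remark. File headers and labels disagreed for 7 arrays, in strain for 4, sex for 3 and batch for 1, and the labels were used. Over 1223 strain-varying probe sets, 11 of 196 arrays were closer to another strain than to their own, among them arrays of BXD14 and BXD23, CXB13 replicate 1 and CXB5 replicate 3. Of the F1 arrays, B6D2F1 replicate 3, labelled a technical duplicate of the other male array, correlated with its own strain at 0.08, and D2B6F1 replicate 1 at -0.05. Without the F1 arrays the counts between the parents (12), between wild-derived and classical strains (1) and between the sexes (0) were unchanged. Without BXD14 and BXD23, 26 Zfp genes were called in the BXD panel rather than 27, and without those CXB arrays 3 rather than 4 in the CXB panel. The defining markers of dentate granule neurons, pyramidal neurons, interneurons, astrocytes, oligodendrocytes and microglia were measured, with 17 of 18 of them at a mean of 8 or more.

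Strain differences within the BXD panel were found for 27 of the 178 Zfp genes (15.2%) by limma's moderated F-test. The background was 12.7% in the 9827 other genes and 8.38% over all probe sets. At the shares of other genes in the same brightness bins 24.1 Zfp genes would be called, so the count lies near the background. In the lowest bin 17 of 127 Zfp genes were called (13.4%, other genes 13.9%), and between 8.5 and 9 it was 8 of 38 (21.1%, other genes 13.1%). A share near the background also held for the size of the effects. The intraclass correlation, the share of the variance between arrays that lies between strains, had a median of 0.108 in Zfp genes and 0.102 in other genes, and it passed 0.5 in 9 Zfp genes (5.06%) and in 513 others (5.22%).

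The remaining comparisons gave fewer calls. Across CXB strains 4 Zfp genes were called (2.25%), with a background of 1.65% in other genes and 1.09% over all probe sets. Between wild-derived and classical strains 1 was called (0.562%), with a background of 4.58% in other genes and 3.90% over all probe sets. Between the BXD parents 12 were called (6.74%), with a background of 8.00% in other genes and 7.24% over all probe sets. No Zfp gene was called between the sexes, where the background was 0.122% in other genes. In all, 142 of the 178 genes were called in no comparison, a count without a counterpart for other genes here.

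**Figure D1:**
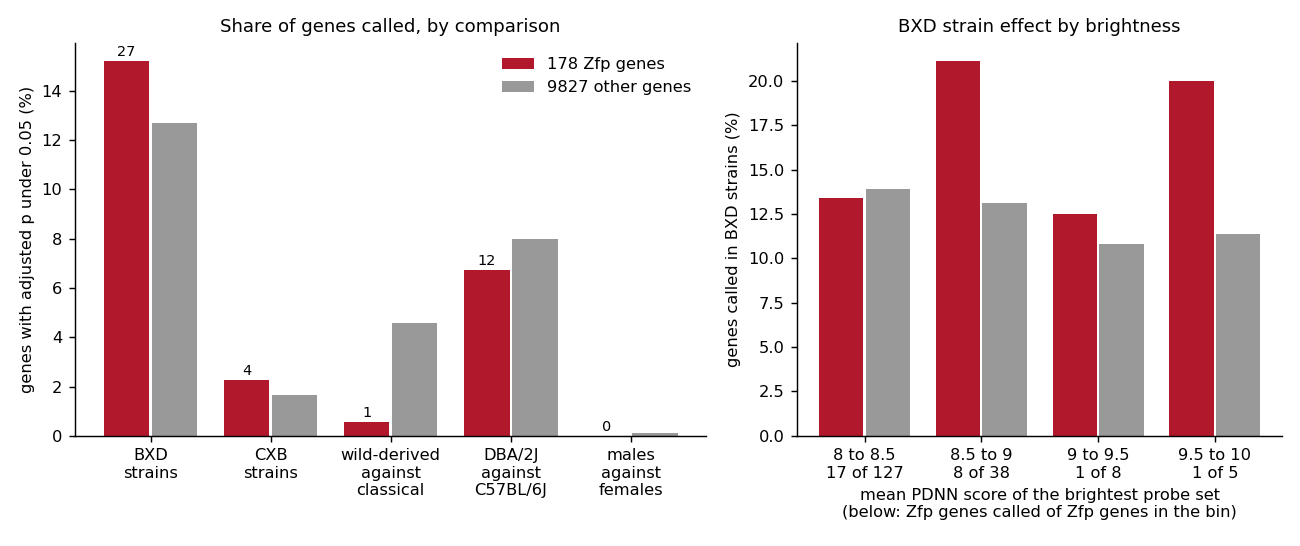
Left, the percentage of genes with an adjusted p under 0.05 among 178 Zfp genes (red, number called above the bar) and 9827 other genes with a mean PDNN score of 8 or more (grey), in 5 comparisons; right, the same percentage for the BXD strain effect by bins of mean score. The bars are close in the BXD panel (15.2% and 12.7%) and apart in the wild-derived comparison (0.562% and 4.58%), where the count is 1.

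Among the called genes, the widest strain differences in the BXD panel belonged to Zfp277, which encodes a C2H2 protein that works with the polycomb factor BMI1 at the Ink4a/Arf locus. Its probe set 1433953_at, for a gene on chromosome 12, ranged from 8.09 through a median of 8.54 to 8.95 over 133 arrays. Fitted strain values fell into a low and a high set, 33 strains below and 35 at 8.60 or higher, with a gap of 0.09 between them. The parents stood on opposite sides, with C57BL/6J arrays at 8.62, 8.90 and 8.60 and DBA/2J arrays at 8.19 and 8.18. Male and female pools of a strain lay on the same side of the median in 58 of 62 strains. The SD of fitted strain values was 0.226, the intraclass correlation 0.891 and the adjusted p 5.04e-21, and the parents differed by -0.55 ± 0.09 (SE, DBA/2J minus C57BL/6J, adjusted p 5.80e-06). In the CXB panel, whose arrays ran from 8.45 to 8.88, the gene was not called (adjusted p 0.888). Its second probe set 1443362_at was not called in the BXD panel, at an intraclass correlation of 0.0639.

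The promoter of Zfp277 is shown because the gene has the largest SD of strain values among the called genes. The SD of Zfp207 was larger (0.246), with no strain effect called (adjusted p 0.858). It is the stretch of 250 bases before the gene's start in RefSeq (GRCm38.p6, chr12:40445791-40446040, minus strand), written 5′ to 3′ along the gene, with matches on either strand to the CCAAT box and to the GC box GGGCGG in capitals. It held 2 of the former and 3 of the latter. Over 27025 RefSeq promoters of this length, 34.5% held the former and 32.9% the latter, and over the 144 Zfp genes with a listed promoter these were 45.1% and 46.5%.
Zfp277: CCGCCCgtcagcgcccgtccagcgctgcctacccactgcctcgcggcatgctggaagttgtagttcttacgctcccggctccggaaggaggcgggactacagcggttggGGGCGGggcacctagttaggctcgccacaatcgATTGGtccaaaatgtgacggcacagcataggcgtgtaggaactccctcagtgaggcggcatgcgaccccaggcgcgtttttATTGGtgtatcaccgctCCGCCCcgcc

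Zfp949 on chromosome 9 was the second widest of the called genes. Arrays of its probe set 1458491_at ran from 7.89 through 8.22 to 8.56, the SD of strain values was 0.180 and the adjusted p 6.91e-13, and both sexes shared a side of the median in 56 of 62 strains. Strains again split into 34 low and 34 high ones. The parents' difference at this probe set was small and not called (0.16 ± 0.08, adjusted p 0.244), with C57BL/6J at 7.95, 8.09 and 8.03 and DBA/2J at 8.29 and 8.18. At the second probe set 1456518_at the pattern was wider, with arrays from 7.46 to 8.42, an SD of 0.289, an adjusted p of 2.13e-18 and a parental difference of 0.54 (adjusted p 2.17e-05). All 68 strains were on the same side of the median at both probe sets. Across CXB strains the brightest probe set was not called (SD 0.0393, adjusted p 0.876).

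Zfp593 on chromosome 4, whose human counterpart is a nuclear protein linked to ribosome biogenesis, was called in both recombinant panels and between the BXD parents. BXD arrays at 1447703_x_at ran from 7.69 through 8.04 to 8.35 (SD of strain values 0.141, adjusted p 5.26e-11), and both sexes shared a side of the median in 51 of 62 strains. C57BL/6J read 8.13, 8.20 and 8.09 and DBA/2J 7.99 and 7.78, a difference of -0.28 ± 0.07 (adjusted p 0.00721) with no overlap between the parents' arrays. The suffix of this probe set marks probes that may also match other transcripts. The gene's other probe set, 1449946_a_at, was not called in the BXD panel (adjusted p 0.519) and lay lower in DBA/2J by 0.14 (adjusted p 0.00998).

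Zfp760 on chromosome 17 was called in the BXD panel and not between the BXD parents. Arrays ran from 7.76 through 8.06 to 8.37 (SD 0.135, adjusted p 5.77e-10), and 15 strains lay below and 22 above both parents, which themselves differed by 0.23 (adjusted p 0.0577). Zfp369 on chromosome 13 encodes NRIF2, a partner of the neurotrophin receptor p75. Its arrays ran from 8.10 through 8.35 to 8.59, and its strain values had an SD of 0.0934 and an adjusted p of 2.87e-08, while the parents were level, at fitted values of 8.35 in DBA/2J and 8.37 in C57BL/6J. Of the 68 strains 37 lay below both parents and 27 above. In both genes the parents' own difference did not pass the test. Fitted strain values carry error, so strains fall outside parents that lie close together even without a strain effect. Zfp386, not called in the BXD panel, had 2 strains below and 30 above both parents. The counts outside the parents thus do not show by themselves that strains exceeded them.

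**Figure D2:**
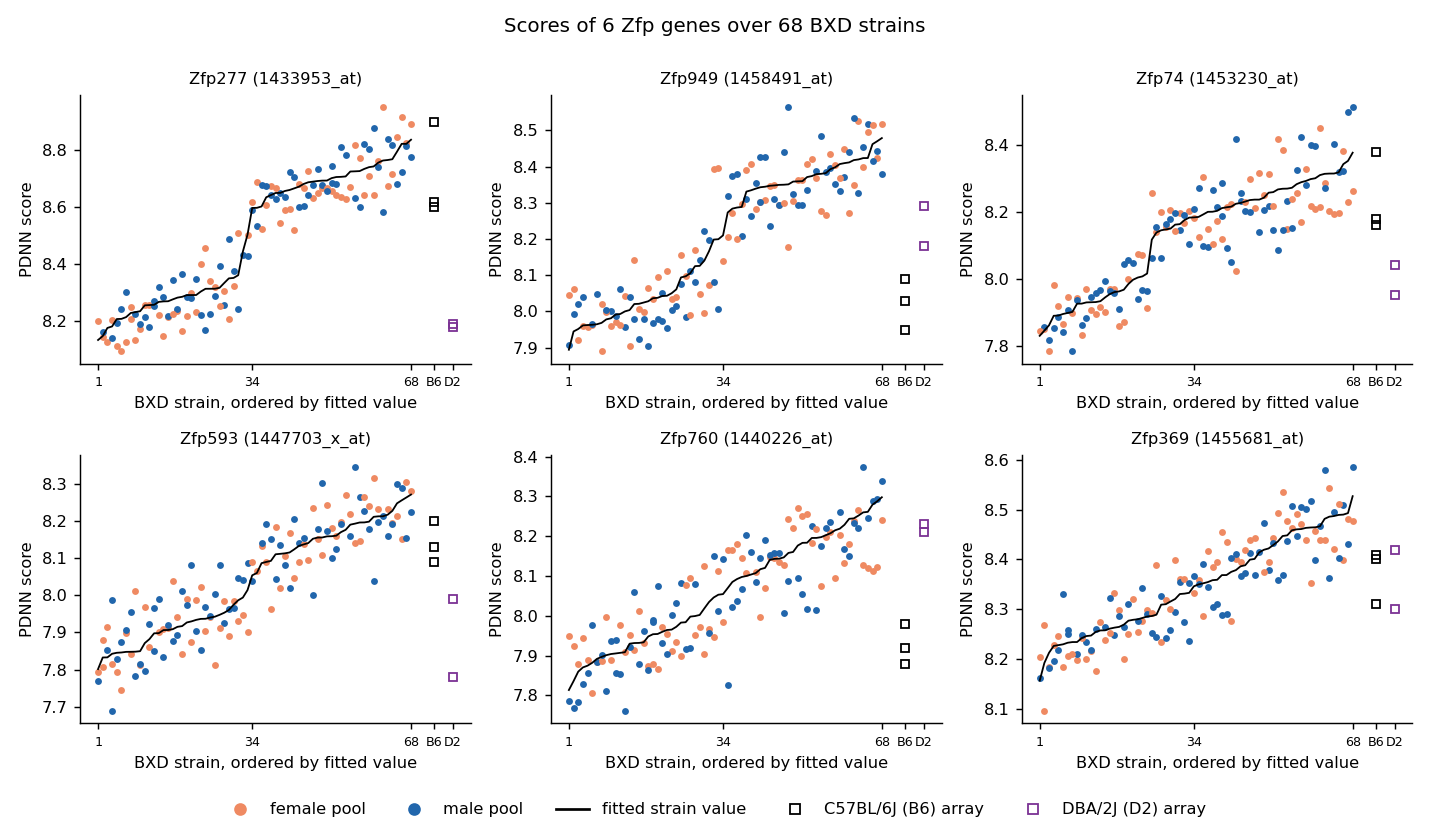
PDNN scores of 6 Zfp genes in 68 BXD strains ordered by fitted strain value, with female pools in orange, male pools in blue, fitted values as a black line, and the arrays of both parents as open squares at the right (B6, C57BL/6J; D2, DBA/2J). Zfp277 and Zfp74 show a step between low and high strains, and Zfp369 a gradual rise past both parents.

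Of the other widely varying genes, Zfp950 on chromosome 19 ran from 8.32 through 8.59 to 9.04 (SD 0.150, adjusted p 8.13e-05). Its second probe set 1436072_at was called as well, in the BXD panel (adjusted p 1.42e-08) and in the CXB panel (adjusted p 0.0109), and 56 of 68 BXD strains were on the same side of the median at both. Zfp367 on chromosome 13, a cell-cycle regulated transcription factor, ran from 8.00 through 8.38 to 8.88 (SD 0.134, adjusted p 6.33e-05), and its second probe set was called too. At the brightest probe sets the parents were level, with fitted values of 8.60 in both for Zfp950 and of 8.33 in DBA/2J and 8.31 in C57BL/6J for Zfp367. At the second ones DBA/2J was lower by 0.23 in each gene, a difference that was called for Zfp367 (adjusted p 0.00370) and missed the threshold for Zfp950 (adjusted p 0.0809).

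Zfp931 on chromosome 2 (SD 0.114, adjusted p 0.00662) had 1 strain far above the rest of the panel. BXD13 read 9.78 on both arrays, and the median of all BXD arrays was 9.20. Zfp943 on chromosome 17 (SD 0.108, adjusted p 0.00153) ran from 8.14 to 8.88. Zfp617 on chromosome 8 (SD 0.107, adjusted p 0.0316) ran from 8.38 to 9.02. Zfp365 on chromosome 10, which encodes a DISC1-binding protein of neurons, had the highest mean of all members, 9.99, and strain values with an SD of 0.107 (adjusted p 0.0431). Its call was lost in 19 of 34 alternative settings, while Zfp277, Zfp949, Zfp74, Zfp593, Zfp760 and Zfp367 were called in all 34.

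The further 13 called genes outside the cluster on chromosome 7 were Zfp330, Zfp131, Zfp157, Zfp369, Zfp941, Zfp697, Zfp612, Zfp532, Zfp287, Zfp93, Zfp523, Zfp398 and Zfp46, with SDs of 0.0611 for Zfp46 to 0.101 for Zfp330. Male and female pools shared a side of the median in 30 to 58 of 62 strains over the 27 called genes, with a median of 39. Over the 151 genes not called it was 18 to 39, with a median of 30. The F-test calls genes whose pools of a strain read alike, on these same arrays. Same-side counts, here and for single genes, therefore describe the calls and are no independent support for them. Among the called genes, 4 were also called between the parents: Zfp277, Zfp74 and Zfp593 were lower in DBA/2J, and Zfp941 was higher. No such overlap is at hand for other genes. Zfp398 on chromosome 6 differed between its probe sets. At 1458003_at it had an intraclass correlation of 0.802 (adjusted p 2.74e-14), yet 10 of 68 strains were on the same side of the median there and at the brightest probe set.

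Called genes were spread over 15 chromosomes, and chromosome 7, which holds 41 of the 178 genes, had 6 of them. There, Zfp790, Zfp420, Zfp74 and Zfp82 lie in 1 region and were all called in the BXD panel, a set picked out after their values were seen. Zfp383, between Zfp420 and Zfp74, Zfp30, on the other side of Zfp790, and Zfp84, beyond Zfp30, were not called (adjusted p 0.569, 0.693 and 0.568). The promoters of the 4 called genes are shown because their strain values correlated with one another, at 0.77 to 0.83 among Zfp420, Zfp74 and Zfp82 and at 0.34 to 0.50 for the brightest probe set of Zfp790 with these 3. Those values share arrays. With female pools for 1 gene and male pools for the other, over 62 strains, the same pairs correlated at 0.25 to 0.57 and at 0.23 to 0.4. The latter values use fewer arrays per strain. Each is the 250 bases before the start in RefSeq (GRCm38.p6), 5′ to 3′ along the gene: Zfp790 at chr7:29815822-29816071 (plus strand), Zfp420 at chr7:29859762-29860011 (plus), Zfp74 at chr7:29954066-29954315 (minus) and Zfp82 at chr7:30072824-30073073 (minus). Capitals mark CCAAT and GGGCGG on either strand and the longest stretch that the promoters of Zfp790, Zfp420 and Zfp74 share. That stretch is 15 bases long, TCTGGGAAATGTAGT in Zfp790 and Zfp74 and ACTACATTTCCCAGA, its other strand, in Zfp420, where a CCAAT match abuts it in 1 run of capitals. It resembles the motif of the transcription factor ZNF143.
Zfp790: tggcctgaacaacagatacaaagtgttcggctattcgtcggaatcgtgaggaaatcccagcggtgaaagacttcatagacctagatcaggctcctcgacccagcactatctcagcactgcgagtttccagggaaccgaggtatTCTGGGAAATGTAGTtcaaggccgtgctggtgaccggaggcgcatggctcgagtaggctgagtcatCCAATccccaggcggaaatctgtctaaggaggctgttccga
Zfp420: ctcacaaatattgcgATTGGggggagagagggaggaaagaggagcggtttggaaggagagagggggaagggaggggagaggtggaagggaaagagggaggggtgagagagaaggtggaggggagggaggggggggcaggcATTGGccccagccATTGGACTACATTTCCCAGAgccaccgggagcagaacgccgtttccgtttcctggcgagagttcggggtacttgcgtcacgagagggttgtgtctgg
Zfp74: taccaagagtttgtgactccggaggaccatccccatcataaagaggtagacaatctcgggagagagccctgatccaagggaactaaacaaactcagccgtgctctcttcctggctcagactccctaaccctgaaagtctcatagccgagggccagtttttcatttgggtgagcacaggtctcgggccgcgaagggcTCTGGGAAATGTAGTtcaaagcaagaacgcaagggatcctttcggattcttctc
Zfp82: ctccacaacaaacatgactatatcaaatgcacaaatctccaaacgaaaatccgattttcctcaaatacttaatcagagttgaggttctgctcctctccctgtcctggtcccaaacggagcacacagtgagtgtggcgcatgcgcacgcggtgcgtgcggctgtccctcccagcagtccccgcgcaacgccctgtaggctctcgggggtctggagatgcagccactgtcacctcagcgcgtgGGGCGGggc

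The 15 bases, searched after these sequences had been seen, have no match in this window of Zfp82 or of Zfp277. They occurred in 46 of the 27025 promoters (0.170%) and in 6 of 144 Zfp promoters (4.17%), 3 of the 6 being the genes they came from. TATAAA occurred in 13.0% of all promoters and in 12 Zfp promoters. Zfp promoters held a median of 13 CpG dinucleotides, against 6 over all promoters.

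Zfp74, a KRAB zinc finger gene, had the largest SD among the brightest probe sets of these 4 genes. BXD arrays ran from 7.78 through 8.15 to 8.51 (SD 0.159, intraclass correlation 0.777, adjusted p 1.10e-12), and strains split into 24 at 8.02 or lower and 44 at 8.12 or higher. C57BL/6J read 8.18, 8.38 and 8.16 and DBA/2J 8.04 and 7.95, a difference of -0.29 ± 0.08 (adjusted p 0.00753). The parents' arrays did not overlap. By the midpoint of the parents' fitted values, 25 strains were counted on the DBA/2J side (7.83 to 8.12) and 43 on the C57BL/6J side (8.14 to 8.38). This split differs from that at the gap, as a strain at 8.12 is among the 25. The parents' fitted values come from the fit of all arrays, and the strain values printed here from the BXD fit. The CXB strain effect did not pass the threshold (adjusted p 0.0951).

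The called genes of the region were then read on both sides of Zfp74. In the 25 strains on the DBA/2J side of Zfp74, Zfp420 had a median strain value of 8.08 against 8.31 in the 43 strains on the C57BL/6J side. The medians were 8.00 and 8.16 for Zfp82, and 7.92 and 8.26 for the second probe set of Zfp790, 1426293_at, which was itself called in the BXD panel (adjusted p 2.39e-13) and in the CXB panel (adjusted p 0.00870). That probe set had a wider SD than Zfp74, 0.173, while the brightest probe set of Zfp790 had medians of 8.17 and 8.23. All of these medians were lower on the side where Zfp74 was lower, and the least apart were those of the brightest probe set of Zfp790. Of 68 strains, 58 shared a side of the median for Zfp420 and Zfp74, 54 for Zfp82 and Zfp74, 62 for Zfp74 and the second probe set of Zfp790, and 48 for Zfp74 and the brightest one. The uncalled Zfp383 and Zfp30 had correlations with Zfp74 of 0.19 and 0.02, so not every Zfp gene of the region went with it. Zfp84, also uncalled, correlated at 0.46 with Zfp74, 0.56 with Zfp420 and 0.67 with the brightest probe set of Zfp790. The correlations thus did not separate called from uncalled genes of the region. In the CXB panel Zfp74 and the second probe set of Zfp790 shared a side in 13 of 13 strains, and Zfp74 and the brightest one in 9. These values come from the same arrays, so a pair of genes shares the errors of each array.

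Within each side of Zfp74 a relation was left. Correlations of Zfp74 strain values with Zfp420 were 0.59 over the 25 strains and 0.36 over the 43, with Zfp82 0.19 and 0.48, and with the second probe set of Zfp790 0.74 and 0.51. Between the parents, Zfp74 and that second probe set were called (-0.24, adjusted p 0.0380), while Zfp790, Zfp420 and Zfp82 had differences of -0.08, -0.16 and -0.06 that were not.

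**Figure D3:**
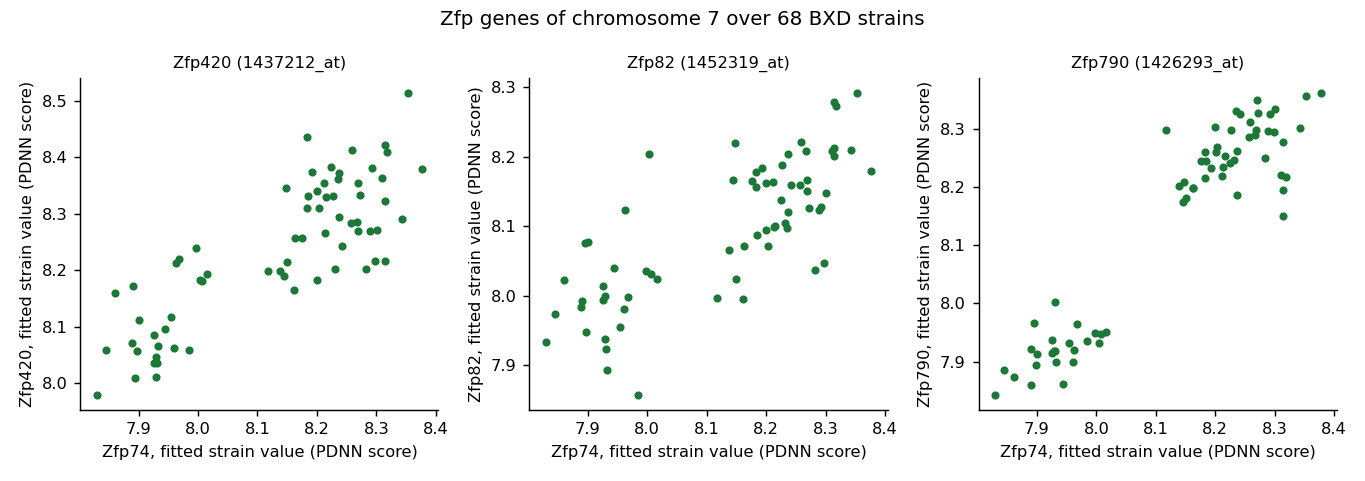
Fitted PDNN strain values of Zfp420, Zfp82 and the second probe set of Zfp790 against those of Zfp74 in 68 BXD strains, 1 point per strain. Strains with Zfp74 below its gap (8.02 or lower) mostly have lower values of the other genes than strains above it (8.12 or higher), with some overlap.

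Position on the chromosome was also counted over all members, with a neighbour defined as another member with at most 5 genes between them in the gene table, which leaves Zfp82 without one. Of 70 genes with a neighbour 8 were called (11.4%), and of 108 without one 19 were (17.6%). Correlations of strain values over the 68 BXD strains were 0.5 or more in size for 10 of 46 adjacent pairs (21.7%) and for 2109 of 15753 pairs of members in all (13.4%). On chromosome 17, Zfp942 and Zfp943 correlated at 0.66 over BXD strains and 0.86 over CXB strains, and Zfp760 and Zfp943 at -0.38 over BXD strains. All of these pairs were measured on shared arrays.

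In the CXB panel the gene with the widest differences was Zfp386 on chromosome 12, a KRAB zinc finger gene. The low strains were CXB3 (8.29 and 8.31), CXB6 (8.37 and 8.32), CXB8 (8.32 and 8.28), CXB11 (8.35 and 8.28) and CXB12 (8.24 and 8.27). CXB10 read 8.30 and 8.57, and the other 7 strains read 8.55 or more on every array, up to 9.03 in CXB2. These sets were drawn from the same scores, with CXB10 in neither, so their lack of overlap follows from the grouping. C57BL/6ByJ read 8.68 and 8.99 and BALB/cByJ 8.43 on its only array. The SD of strain values was 0.230 and the adjusted p 0.0102. In the BXD panel, where arrays ran from 8.47 to 9.09, the gene was not called (adjusted p 0.506).

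Zfp939 on chromosome 7 formed 2 levels. CXB3, CXB7, CXB8, CXB9 and CXB11 read between 8.23 and 8.40 on all of their arrays, and the other 8 strains between 7.84 and 8.06. The SD was 0.163 and the adjusted p 0.00517. C57BL/6ByJ read 8.45 and 8.19, both above the lower level, and BALB/cByJ read 8.00, within it. Between the BXD parents Zfp939 was higher in DBA/2J, at 8.44 and 8.47, than in C57BL/6J, at 8.23, 7.84 and 8.12 (0.43 ± 0.09, adjusted p 0.000218). Its BXD strain effect was not called (adjusted p 0.673), and all 68 BXD strains lay between the parents' fitted values.

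Zfp593, called in the BXD panel as well, ran from 7.75 to 8.34 in CXB arrays (SD 0.159, adjusted p 0.0208). CXB4 was highest, at 8.27 and 8.31, and CXB10 low, at 7.77 and 7.88. C57BL/6ByJ read 8.16 and 8.31 and BALB/cByJ 7.94, so the BALB substrain was on the low side, as DBA/2J was. Zfp617 ran from 8.38 to 8.92 (SD 0.138, adjusted p 0.0150), with CXB2 highest at 8.87 and 8.92. Its other probe set was called in neither panel (adjusted p 0.370 in BXD and 0.884 in CXB). These 2 genes are 7.41% of the BXD-called and 50.0% of the CXB-called Zfp genes. The overlap has no counterpart for other genes here, so these shares do not set Zfp genes apart.

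The CXB count depended on single arrays and on the set of arrays. Without CXB7 replicate 1 it was 12, with 4.16% of other genes called, and without the 6 CXB arrays with an outlier share of 0.1 or more it was 0.

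**Figure D4:**
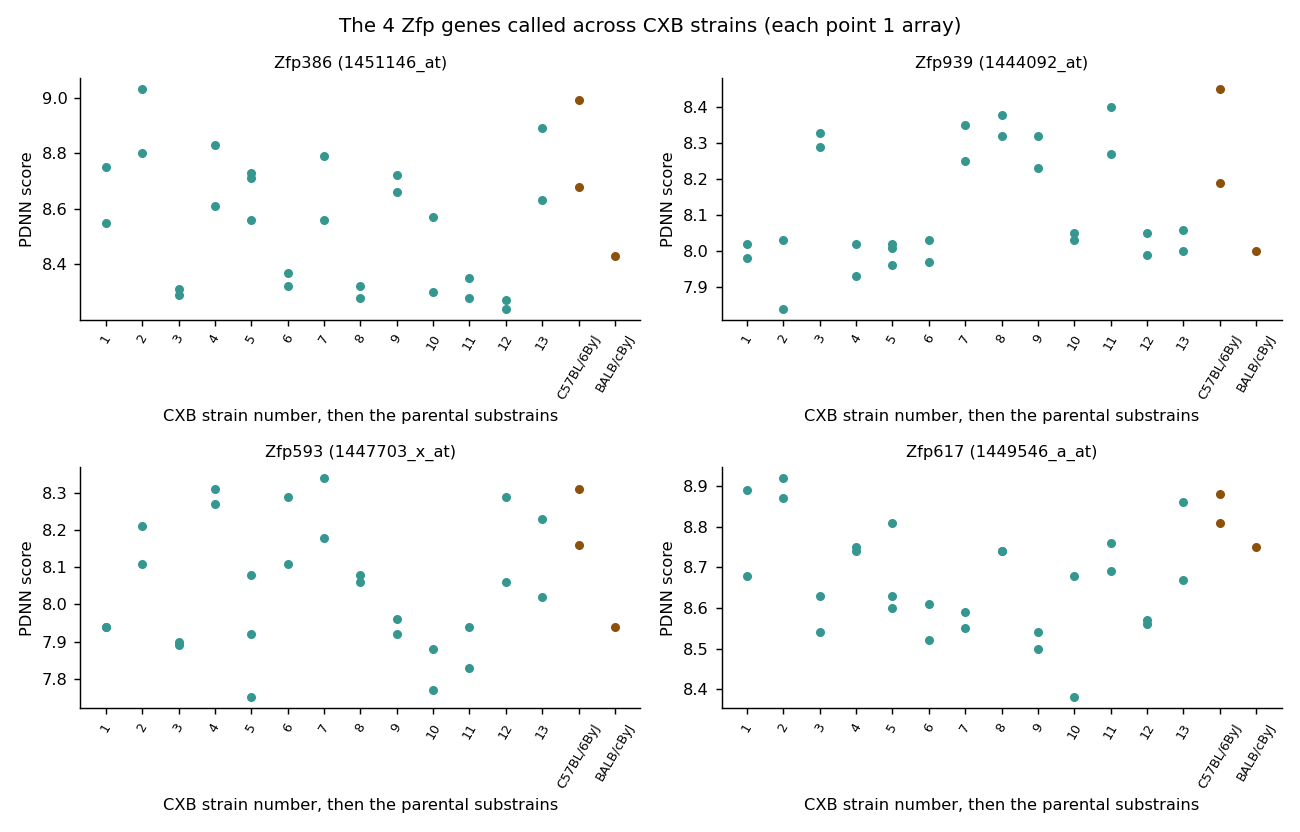
PDNN scores of the 4 Zfp genes called across CXB strains, 1 point per array, for the 13 CXB strains (teal) and the parental substrains C57BL/6ByJ and BALB/cByJ (brown). Zfp939 forms a level between 8.23 and 8.40 in 5 strains and a level between 7.84 and 8.06 in the other 8.

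Between wild-derived and classical inbred strains, with strains as the replicates, the called gene was Zfp267 on chromosome 3. At its brightest probe set 1455757_at the wild-derived arrays read 7.51 in CAST/EiJ, 7.47 and 7.75 in PWD/PhJ, 7.78 and 7.84 in PWK/PhJ, and 7.69 and 7.66 in WSB/EiJ. Among the 13 classical strains, fitted values ran from 7.95 in NZO/HlLtJ (arrays 7.84 and 8.15) through a median of 8.72 to 9.16 in DBA/2J. All 13 classical strain values were above all 4 wild-derived ones. The difference was -1.04 ± 0.16 (SE, 4 wild-derived against 13 classical strains, adjusted p 0.00323 by limma), and it was called in all 31 alternative settings.

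The gene's second probe set 1437557_at gave a difference of -0.13 (adjusted p 0.0661). There CAST/EiJ read 7.99, PWD/PhJ 8.00 and 8.04 and PWK/PhJ 8.04 and 7.99, while WSB/EiJ at 8.29 and 8.21 was as high as classical strains. The first probe set also differed between the BXD parents, with C57BL/6J at 8.29, 8.29 and 8.19 and DBA/2J at 8.83 and 9.10 (0.93 ± 0.15, adjusted p 6.68e-06). Within the BXD panel it had no strain effect (intraclass correlation -0.106, adjusted p 0.850), and all 68 strains lay between the parents. The ACTB 3′ to 5′ ratio, a measure of RNA degradation, was 1.32 to 4.65 in wild-derived arrays (median 2.32) with a median of 1.67 in classical ones, and its part in the result was not tested.

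**Figure D5:**
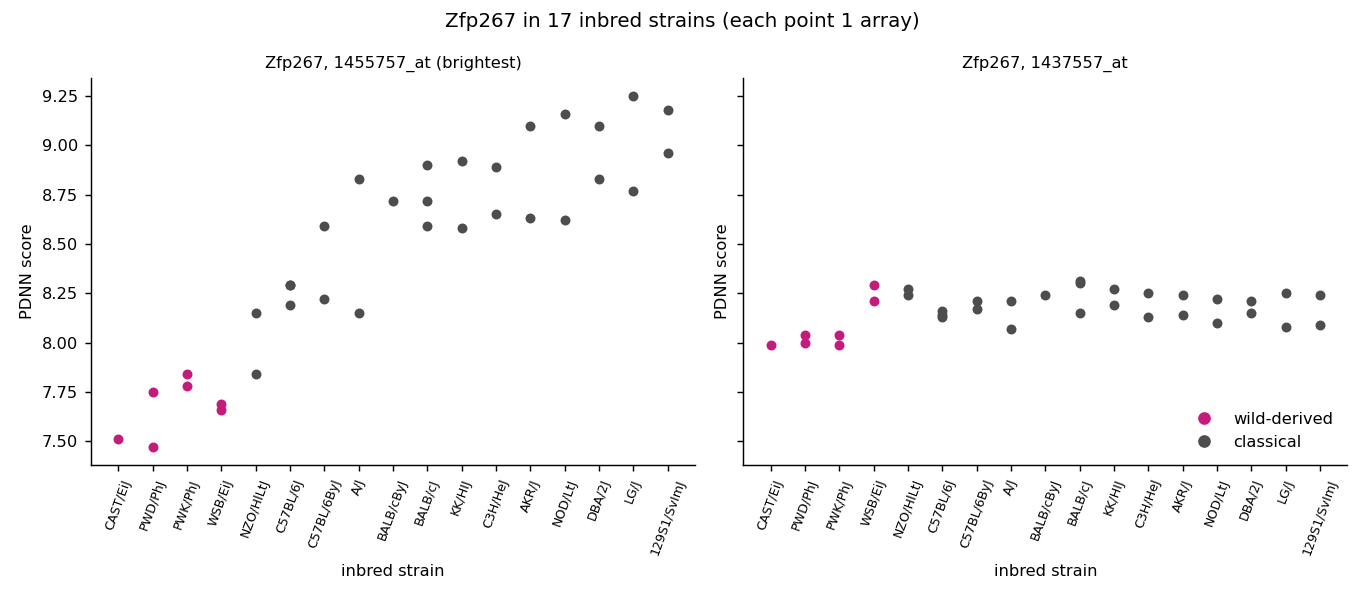
PDNN scores of both probe sets of Zfp267 in 17 inbred strains, 1 point per array, wild-derived strains in pink and classical strains in grey. At 1455757_at the 4 wild-derived strains read 7.47 to 7.84, whereas at 1437557_at WSB/EiJ reads 8.29 and 8.21, level with classical strains.

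No Zfp gene was called as higher in the wild-derived strains (background 1.10% of other genes and 1.92% of all probe sets), and 1 as lower (background 3.48% and 1.99%). At an unadjusted p under 0.05 limma found 36 Zfp genes in this comparison (20.2%), against 23.1% of other genes, and the adjusted counts from RMA and MAS5 values were 3 and 2. Zfp386 and Zfp939 had higher values in wild-derived strains that missed the threshold (0.32 ± 0.11, adjusted p 0.0957, and 0.31 ± 0.12, adjusted p 0.121), with 10 of 13 classical strains below all wild-derived ones in each. The median difference was 0.00436 in Zfp genes and -0.0103 in other genes. The count of 1 rose to 7 without KK/HIJ, to 4 without PWK/PhJ or WSB/EiJ, to 3 without C57BL/6J and to 2 without BALB/cByJ, while the share of other genes rose to 8.57%, 5.38%, 8.25% and 6.12% and was 4.10% in the last case.

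Of the 12 Zfp genes called between the BXD parents, 8 were higher in DBA/2J (4.49%, with 4.08% of other genes and 4.61% of all probe sets) and 4 were lower (2.25%, with 3.92% of other genes and 2.63% of all probe sets). The largest differences were those of Zfp207 and Zfp148, which encode the spindle protein BuGZ and the GC-box binding factor ZBP-89. Zfp207 at 1438714_at read 9.52, 8.57 and 9.17 in C57BL/6J and 10.00 and 10.60 in DBA/2J (1.33 ± 0.33, adjusted p 0.00357). Zfp148 at 1449069_at read 9.24, 9.12 and 9.15 against 9.77 and 10.10 (1.05 ± 0.23, adjusted p 0.000657). The parents did not overlap in either gene.

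Other measurements of both genes did not show such differences throughout. The pair of C57BL/6ByJ arrays was itself wide apart, at 10.18 and 9.13 for Zfp148 and at 10.04 and 9.08 for Zfp207. Neither gene had a BXD strain effect (intraclass correlations -0.162 and -0.117). The other 5 probe sets of Zfp148 differed by -0.01 to 0.23 between the parents and none was called, and of the other 5 of Zfp207, 1434752_at (0.69) and 1438515_at (0.52) were called and 3 were not (-0.04 to 0.06). ACTB ratios were 1.67, 1.14 and 1.68 in C57BL/6J arrays and 1.30 and 1.28 in DBA/2J arrays, and their part was not tested.

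The other parental calls were smaller. Zfp941 was higher in DBA/2J, at 8.31 and 8.20, than in C57BL/6J, at 7.98, 7.83 and 7.96 (0.35 ± 0.09, adjusted p 0.00341), and 64 of 68 BXD strains lay between the parents. Zfp467, a factor at the branch between bone and fat cells, was higher by 0.26 ± 0.07 (adjusted p 0.0139), Zfp101 by 0.26 ± 0.08 (adjusted p 0.0397) and Zfp507 by 0.23 ± 0.06 (adjusted p 0.0152). Zfp646 was lower by 0.17 (adjusted p 0.00484), with DBA/2J at 7.84 and 7.94 and C57BL/6J at 8.00, 8.13 and 8.11. Both DBA/2J pools were female, and sex was a term of the fit. Without DBA/2J replicate 1 the count fell from 12 to 6, with 3.86% of other genes called.

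Males and females did not differ in any Zfp gene by limma at the threshold, nor with RMA or MAS5 values, where the counts were also 0. At an unadjusted p under 0.05 there were 12 Zfp genes (6.74%, other genes 4.63%). The lowest adjusted p was 0.936, in Zfp560.

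Of a list of 14 textbook Zfp genes, 10 (71.4%) were called in no comparison at the brightest probe set, against 79.8% of all 178 genes. The 4 called ones, Zfp148, Zfp207, Zfp365 and Zfp369, are described above. Not called were Zfp91, a regulator of NF-kB signalling, Zfp106, an RNA-binding protein needed by motor neurons, Zfp110, the neurotrophin receptor partner NRIF1, and Zfp281, a factor of pluripotent cells. The same was true of Zfp292, Zfp318, Zfp335, a regulator of neural progenitors, Zfp423, needed in cerebellar development, Zfp462, and Zfp809, which recruits TRIM28 to retroviral DNA. Of these 10 genes, 4 were called at another probe set. Zfp318 at 1425346_at (0.42, adjusted p 0.00768), Zfp292 at 1430216_at (0.38, adjusted p 0.00526) and at 1436308_at (0.24, adjusted p 0.00929), and Zfp462 were higher in DBA/2J. Zfp292 was higher in wild-derived strains at 1430961_at (0.24, adjusted p 0.00813), and Zfp110 had a BXD strain effect at 1437236_a_at (adjusted p 0.0252). Zfp809 arrays in the BXD panel ran from 8.00 through 8.21 to 8.48 (adjusted p 0.551), and its difference between wild-derived and classical strains was -0.13 ± 0.05 (adjusted p 0.0938). Zfp106 ran from 9.58 through 9.80 to 10.06 (adjusted p 0.512). Levels of different genes cannot be compared on these scores. Zfp36, Zfp57, Zfp69, Zfp143, Zfp521 and Zfp568 were not among the 178 genes.

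The cofactors of KRAB repression were drawn from a fixed list of 27 genes, of which 26 were measured and 22 had a mean of 8 or more. Among these 22, Atf7ip, which partners the methyltransferase SETDB1, and the deacetylase Hdac1 were called in the BXD panel (SD 0.0935, adjusted p 4.13e-05, and SD 0.0828, adjusted p 2.19e-06). Between the parents Ehmt1, a histone methyltransferase, and Pphln1, of the HUSH silencing complex, were higher in DBA/2J (0.21, adjusted p 0.0180, and 0.65, adjusted p 0.000128) and Hdac1 was lower (-0.17, adjusted p 0.0469). The shares of the 22 were 9.09% in the BXD panel (other genes 12.7%) and 13.6% between the parents (other genes 8.00%). These differences were not tested. No cofactor was called in the CXB panel or between wild-derived and classical strains.

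Other zinc finger families were small, and their shares were not tested against that of the Zfp genes. In the BXD panel, beside the background of 12.7%, 1 of 23 Zbtb genes (Zbtb45), 3 of 13 Zkscan and Zscan genes (Zkscan1, Zkscan3 and Zkscan5), 1 of 10 Klf genes (Klf9), 0 of 4 Sp genes and 1 of 11 Zc3h genes (Zc3h7a) were called, with shares of 4.35% for Zbtb to 23.1% for Zkscan and Zscan among families with a call. Between the parents 4 of 23 Zbtb genes (17.4%, background 8.00%) and 1 Klf gene were called. In the BXD panel Zkscan3 had an SD of 0.174 (adjusted p 1.06e-09), and it was called across CXB strains too (adjusted p 0.000374). None of these families had a called gene between wild-derived and classical strains.

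Cell composition and RNA quality were set beside the BXD calls. Choroid plexus markers, all 4 at a mean of 8 or more and 3 of them called, ranged in their mean from 7.99 to 9.76 over BXD arrays, and correlations of the 27 called genes with that list lay between -0.36 and 0.32 over strains. A correlation of 0.5 or more in size was seen for Zfp612 with the interneuron list (0.55) and for Zfp330 with the oligodendrocyte list (0.51), and for no called gene with the dentate, pyramidal, astrocyte, microglia, choroid, thalamus, erythroid or cerebellum lists. Correlations with the ACTB ratio over 133 arrays had a median of 0.30 in Zfp genes and 0.22 in other genes, and lay between -0.34 and 0.58 (Zfp157) in the called ones. The part of these measures in the strain effects was not tested.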

How the data were processed

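Hippocampal pools were hybridized to M430 2.0 arrays, and the authors deposited a PDNN score per probe set and array, which the labels describe as set to an average of 8 with an SD of 2, though array SDs were 0.630 to 0.799. The deposited RMA and MAS5 scores were alternatives. The versions of the authors' software were not given in the sources used here. Of the probe sets, 64 controls were left out and 45037 tested in R 4.3.3 using limma 3.58.1 and version 1.17.8 of data.table.

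Strain effects used moderated F-tests on 133 BXD arrays (58 residual degrees of freedom) and 27 CXB arrays (10), with sex and batch (7 batches per the labels). Parents and sex came from 1 fit of 199 columns (92 residual degrees of freedom), with a labelled technical duplicate averaged, and wild-derived strains were compared over 17 fitted strain values. Tests were two-sided, with Benjamini-Hochberg adjustment over all probe sets and a threshold of 0.05. Models were tested on simulated data.

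Members, lists and comparisons were chosen with earlier results of these data known. Named genes were, in BXD and CXB, up to 12 called genes with the largest SD of strain values, the largest called differences between parents and between wild-derived and classical strains, the genes beside the limit, and a list of textbook genes. Other BXD-called genes and the genes of chromosome 7 were named after their values were seen. Zfp genes were also taken to RefSeq promoters by symbol (144 of 178 matched). Arrays have no counting depth, so the number of arrays limits the precision.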

Additional observations from a re-analysis of the deposited data

How the results depend on the processing

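The BXD count of 27 was 16 with RMA values (17 without mismatched columns), 15 with MAS5 values, 16 in a fit of all arrays together and 10 when a mean of 8.5 or more was required; it was 21 to 31 under the other alternatives and 23 to 29 when each of 20 arrays was left out. The CXB count of 4 was 0 with MAS5 values and 0 without arrays with a high outlier share, which leaves fewer arrays. It was 2 without a batch term, 2 at a mean of 8.5 or more, 14 in a fit of all arrays (other genes 5.86%) and 3 to 12 when each array was left out, 12 without CXB7 replicate 1. The wild-derived count of 1 was 3 with RMA values (2 without mismatched columns), 2 with MAS5 values, 2 with quantile normalization, 4 without a batch term, 3 with age as a covariate, 2 with the adjustment over bright probe sets, 3 without arrays with a high outlier share, 4 with any probe set of a gene, 4 without WSB/EiJ, 2 without C57BL/6ByJ and BALB/cByJ, and 1 to 7 when each strain was left out. With arrays in place of strains as replicates it was 43 (24.2%, other genes 29.3%). The parental count of 12 was 6 with RMA values, 23 with any probe set of a gene, 4 at a mean of 8.5 or more, 4 with the error estimated from the inbred and F1 arrays only, and 6 to 13 when each parental array was left out, 6 without DBA/2J replicate 1. The counts at a mean of 8.5 or more come from the main tests with the 127 genes under 8.5 left out, so they can only be equal or lower. By bin, the BXD calls there were 8 of 38 genes (21.1%, other genes 13.1%) between 8.5 and 9 and 1 of 8 (12.5%, other genes 10.8%) between 9 and 9.5. Between 9.5 and 10 it was 1 of 5 (20.0%, other genes 11.4%). Where no share of other genes is printed, a count does not show whether Zfp genes shifted more than other genes. The cause of the other shifts was not tested. The sex count was 0 in all alternatives run. For the named genes, no difference between the parents or between wild-derived and classical strains changed direction. The BXD and CXB strain effects have no direction that could change. Among the RMA columns, 4 match another array, 3 of them those of C57BL/6J. The alternatives without mismatched RMA columns, without BXD14 and BXD23, without CXB5 replicate 3 and CXB13 replicate 1, without the F1 arrays, and without shared probe sets were chosen after seeing the data. Called in fewer settings were Zfp593 and Zfp617 across CXB strains (lost in 12 and 10 of 39) and Zfp101 and Zfp74 between the parents (lost in 8 and 6 of 16). By replicate number no paired analysis was possible because the numbers were given in accession order and name no shared animal, litter or day. Strain was a term of the sex fit, which thus compared male and female pools within strains.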

Other observations

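A further 11 Zfp genes had a BXD strain effect at a probe set other than the brightest, 4 of them at one with a mean of 8 or more. The 178 genes have 377 probe sets in all, and the background in the BXD panel was 8.38% of all probe sets. The count was not tested against it. Zfp788 was called at 1441434_at (intraclass correlation 0.834, adjusted p 6.51e-16) and was lower in DBA/2J there (-0.31, adjusted p 0.000148), whereas its brightest probe set was not called (adjusted p 0.471). Zfp142 was called at 1459048_s_at (adjusted p 2.24e-14) and at 1445649_x_at (adjusted p 2.33e-05) and not at the brightest (adjusted p 0.268). Zfp942 was called at the dim probe set 1454402_at, with a mean of 7.27, in BXD strains (adjusted p 3.09e-13) and CXB strains (adjusted p 0.00478), and Zfp467 at 1419564_at (adjusted p 1.98e-11). Zfp704 at 1417849_at (adjusted p 7.77e-10), Zfp40 at 1440695_at (adjusted p 1.39e-08) and Zfp944 at 1437911_at (adjusted p 4.97e-08) followed.

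Of the 27 called genes 21 have several probe sets, and 6 of these had another one called, 4 of them at a correlation of 0.5 or more with the brightest over BXD strains. Over all probe sets 8.38% were called in the BXD panel. Zfp462, the neural gene not called at its brightest probe set, was higher in DBA/2J at 1439106_at (0.75 ± 0.13, adjusted p 2.64e-05), where its BXD strain effect was not called (adjusted p 0.662).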
